A study of Arabidopsis thaliana with 6 samples.

Results

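A run of 9 neighbouring loci on chromosome 3 forms a tandem cluster of jacalin-domain genes around JAL33 in Arabidopsis thaliana. It runs from AT3G16390 to AT3G16470 and holds NSP3 (AT3G16390), NSP1 (AT3G16400), NSP4 (AT3G16410), PBP1 (AT3G16420, also named JAL30), JAL31 (AT3G16430), MLP-300B (AT3G16440, the JAL32 locus), JAL33 (AT3G16450), JAL34 (AT3G16460) and JR1 (AT3G16470, also named JAL35). These 9 of the 33602 loci in the deposited files were chosen by locus and with the JAL33 level in these same libraries already known, so what follows on the members' levels and fold changes is a description and carries no test. Whole seedlings of the Col-0 wild type and of a toc1-21 prr5-1 double mutant were compared by RNA sequencing, with 3 libraries for each genotype. Seedlings of both genotypes were harvested at an age of 10 d and at ZT15, 15 h after lights on, from long days at 22 °C, and the medium was MS with 3% sucrose. TOC1 and PRR5 encode evening-phased transcriptional repressors of the plant circadian clock. The labels do not say what the toc1-21 and prr5-1 alleles change in either gene.

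Jacalin domains bind sugars, and Arabidopsis has a large family of lectins built from them. Several such lectins collect around PYK10, a beta-glucosidase of the endoplasmic reticulum bodies found in seedlings and roots. These lectins set the size of the aggregates that PYK10 forms when cells are broken. Nitrile-specifier proteins (NSPs), some of which join jacalin domains to kelch repeats, act on the products of glucosinolate breakdown and steer them from isothiocyanates towards nitriles.

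In TAIR10.1 coordinates the cluster spans chromosome 3 from 5562400 to 5599224, a stretch of 36.8 kb. The genes NSP3 to JAL34 lie on the forward strand, 8 in all, and JR1 alone lies on the reverse strand. JAL33 occupies positions 5588292 to 5590085, starting 493 bases after the end of MLP-300B and ending 2405 bases before the start of JAL34. JAL34 (5592491 to 5595912) and JR1 (5595282 to 5599224) overlap by 631 bases on opposite strands. The libraries came from a directional kit, but how strand was used in the counting is not stated in the labels, so reads from that overlap cannot be told apart. AT3G16415, a transcribed pseudogene, and AT3G16432, an uncharacterised protein-coding gene, also lie inside the cluster and are listed at 0 RPKM in all 6 libraries.

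By coding sequence NSP1, NSP3 and NSP4 were near relatives, as were PBP1 and JAL31, and JAL33 and MLP-300B. JAL34 and JR1 had no relative as near among the members. NSP1 and NSP4 were 95.0% identical over 1410 aligned bases and shared an unbroken run of 366 bases, and NSP3 was 92.3% identical to NSP1. PBP1 and JAL31 were 89.4% identical over 890 bases. JAL33 was nearest to its upstream neighbour MLP-300B over its whole length, with 84.3% identity over 902 of its 903 coding bases, and was 73.3% identical to JAL34 over 854 bases. Of the windows of 50 bases in the exons of each gene, 27.5% in NSP1 and 23.8% in NSP4 occurred more than once in the genome, so the split of reads between NSP1 and NSP4 is uncertain. The share was 1.53% for PBP1 and for JAL31, and 1.24% for NSP3. It was 0% for MLP-300B, JAL33, JAL34 and JR1, so exonic reads of that length from JAL33 match no other place exactly.

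The 250 bases before the annotated start are shown for the member with the greatest difference between genotypes, JAL33, and for its downstream neighbour JAL34, which was also lower in the mutant. They are shown too for PBP1 and JAL31, close relatives of which PBP1 was called lower and JAL31 was not. Sequences were read from the TAIR10.1 genome of RefSeq, 5′ to 3′ on the gene's strand. Capitals mark the longest run that the 2 genes of a pair share in these windows.
JAL33, chr3:5588042-5588291, + strand: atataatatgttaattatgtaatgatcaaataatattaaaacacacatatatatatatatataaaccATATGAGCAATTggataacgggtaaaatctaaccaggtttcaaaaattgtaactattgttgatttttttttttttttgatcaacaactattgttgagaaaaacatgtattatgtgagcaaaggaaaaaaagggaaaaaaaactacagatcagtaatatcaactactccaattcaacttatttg
JAL34, chr3:5592241-5592490, + strand: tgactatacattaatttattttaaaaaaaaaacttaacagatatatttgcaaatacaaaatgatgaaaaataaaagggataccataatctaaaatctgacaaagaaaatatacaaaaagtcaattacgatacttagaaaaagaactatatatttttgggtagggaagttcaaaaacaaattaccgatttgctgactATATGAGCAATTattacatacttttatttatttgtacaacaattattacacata
PBP1, chr3:5579040-5579289, + strand: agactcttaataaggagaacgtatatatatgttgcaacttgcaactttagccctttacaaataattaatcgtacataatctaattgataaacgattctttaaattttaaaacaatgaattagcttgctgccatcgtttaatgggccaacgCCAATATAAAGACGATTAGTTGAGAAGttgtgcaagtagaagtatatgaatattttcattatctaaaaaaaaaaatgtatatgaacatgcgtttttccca
JAL31, chr3:5581318-5581567, + strand: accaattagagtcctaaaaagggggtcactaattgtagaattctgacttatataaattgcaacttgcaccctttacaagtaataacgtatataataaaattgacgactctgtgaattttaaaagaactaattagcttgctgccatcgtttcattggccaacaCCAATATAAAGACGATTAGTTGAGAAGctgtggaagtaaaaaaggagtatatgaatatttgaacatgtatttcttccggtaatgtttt
The JAL33 and JAL34 windows shared 12 bases, which begin 183 bases before the start of JAL33 and 54 bases before that of JAL34. PBP1 and JAL31 shared 27 bases, which begin 100 and 88 bases before their starts. Each of these runs was held on the same strand by 2 of 27443 protein-coding windows, the pair itself. NSP3 and NSP1, which did not pass, shared a run of 14 bases that was also held by 2 windows. PBP1 and JAL34 shared 11 bases. Whether a shared run of 12 bases is more than such windows hold by chance was not tested. The 36 pairs of members had no longer shared run than the 27 bases of PBP1 and JAL31.

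Windows from 250 bases before to 50 bases after the start were searched on both strands for motifs of clock and light regulators. The G-box CACGTG was held by 7.68% of 27443 protein-coding windows and by 0 of the 9 members. The PIF-binding E-box CACATG was held by 12.9% of windows and by 1 member, NSP4, from position -184 relative to its start. The evening element AAATATCT was held by 5.65% of windows and by 0 members. The CCA1-binding site AAAAATCT was held by 7.88% of windows and by 1 member, NSP1, from base 22 after its start. No matches overlapped one another. The JAL33 window held none of these 4 strings of letters.

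Levels are given as RPKM, in which reads are set against gene length and library depth, as the authors deposited them. Differences between genotypes are log2 fold changes, mutant over Col-0, on the log2(RPKM + 1) scale, with the standard error (SE) from a limma fit over all tested genes. A gene was called where the Benjamini-Hochberg adjusted p over 19710 tested genes was under 0.05. All 9 members passed the filter of at least 1 RPKM in at least 3 libraries. Within the cluster 3 members were called lower in the mutant, 0 were called higher and 6 did not pass. Of all tested genes 6.65% were called lower, 3.90% higher and 10.6% in either direction. The values of the 2 genotypes did not overlap for 5 members, 4 of them lower and 1 higher in the mutant, against 27.0% of all tested genes without overlap in either direction. The log2 fold change was negative for 8 members and positive for 1, with a median of -0.33 beside -0.01 over all tested genes. Because the members were chosen with this contrast known, nothing is read from these counts against the background.

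**Figure D1:**
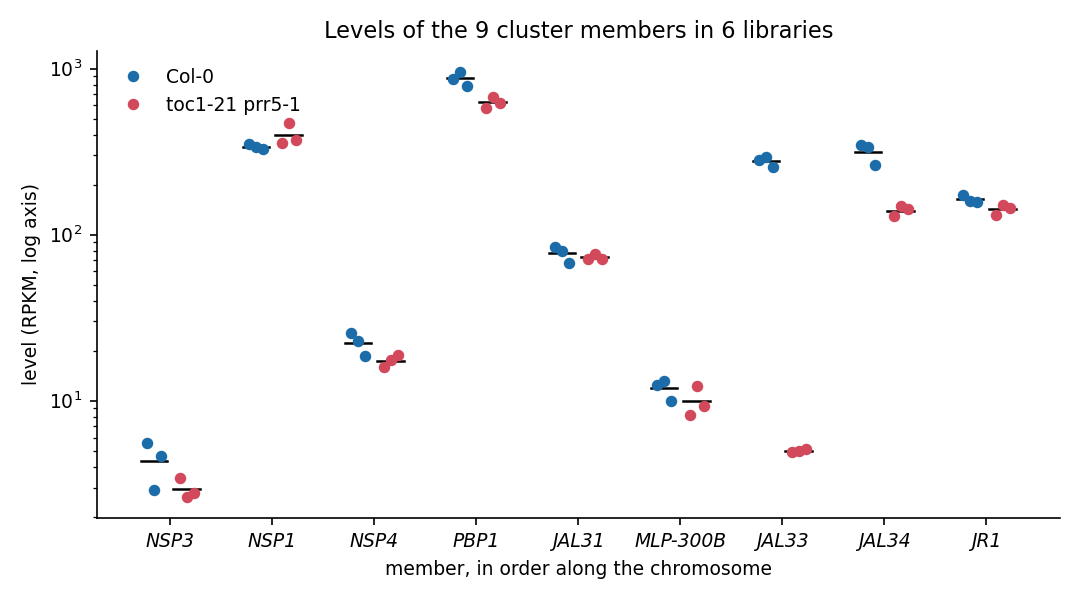
Level of each cluster member in RPKM on a log axis, with members in their order along the chromosome. Points are the 3 libraries of each genotype and black bars their means; JAL33 lies between 256.8 and 295.1 RPKM in Col-0 and between 4.95 and 5.14 RPKM in the mutant, while the other members lie much closer together between the genotypes.

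JAL33 encodes a lectin made of jacalin domains. Its level was 282.1, 295.1 and 256.8 RPKM in the 3 Col-0 libraries and 4.95, 4.95 and 5.14 RPKM in the 3 mutant libraries. Every Col-0 library was far above every mutant library, and the mutant values were almost alike. The means were 278.0 ± 19.5 and 5.01 ± 0.111 RPKM (SD, n = 3 each), a 55.5-fold ratio of means. The log2 fold change was -5.53 (SE 0.083), rank 2 from the lowest among the tested genes on the log2(RPKM + 1) scale. By the ratio of mean RPKM other genes differed more, such as AT3G18535, at 502.7-fold. Among the tested genes its mean level stood at percentile 98.1 in Col-0 and at percentile 25.3 in the mutant. Behind these levels stood 5628, 6526 and 7773 reads in Col-0 and 140, 181 and 140 reads in the mutant, so the gene was still detected in each mutant library. Counting noise alone at these mutant read numbers is wider than an SD of 0.111 RPKM. The closeness of the mutant values is therefore no measure of precision.

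JAL34, the next gene downstream, encodes a longer lectin with a coding sequence of 2118 bases against 903 in JAL33. It measured 348.9, 337.0 and 264.0 RPKM in Col-0 and 128.6, 148.7 and 141.9 RPKM in the mutant. The lowest Col-0 library, replicate 3, was still above the highest mutant library. The means were 316.6 ± 46.0 and 139.7 ± 10.2 RPKM (SD, n = 3 each), 2.27-fold apart, with a log2 fold change of -1.17 (SE 0.116). The level of JAL33 was 0.886 ± 0.0829 times that of JAL34 in Col-0 and 0.0360 ± 0.00261 times in the mutant (SD, n = 3 each). The difference between genotypes was therefore unequal for these neighbours.

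PBP1, the PYK10-binding protein, was the most abundant member in every library. It measured 870.5, 953.6 and 790.3 RPKM in Col-0 and 580.6, 672.4 and 623.2 RPKM in the mutant. All 3 mutant libraries were below all 3 Col-0 libraries. The means were 871.5 ± 81.7 and 625.4 ± 46.0 RPKM (SD, n = 3 each), and the mutant mean was 0.718 times the Col-0 mean. Its log2 fold change was -0.48 (SE 0.108). The call on PBP1 was lost without Col-0 replicate 1, where the log2 fold change was -0.48, without mutant replicate 1, at -0.42, and without mutant replicate 3, at -0.48. It was also lost with no filter on low values, at -0.48.

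JAL31, the close relative of PBP1, differed little. Its level was 84.2, 79.5 and 67.5 RPKM in Col-0 and 71.4, 76.8 and 71.0 RPKM in the mutant. The values of the genotypes overlapped, and the means were 77.1 ± 8.60 and 73.1 ± 3.22 RPKM (SD, n = 3 each). The log2 fold change of JAL31 was -0.07 and did not pass. The level of PBP1 was 11.3 ± 0.907 times that of JAL31 in Col-0 and 8.56 ± 0.361 times in the mutant (SD, n = 3 each).

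MLP-300B, named for its likeness to myrosinase-binding proteins, is the neighbour just upstream of JAL33. Over the whole coding sequence it is also the member nearest to JAL33. Its level was 12.4, 13.1 and 10.0 RPKM in Col-0 and 8.22, 12.3 and 9.35 RPKM in the mutant. The genotypes overlapped, with means of 11.9 ± 1.63 and 9.96 ± 2.11 RPKM (SD, n = 3 each). The log2 fold change of -0.24 did not pass. In Col-0 JAL33 was well above MLP-300B, and in the mutant JAL33 was below MLP-300B in each of the 3 libraries.

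JR1, first described as a jasmonate-responsive gene, closes the cluster on the opposite strand. It measured 174.1, 160.2 and 157.1 RPKM in Col-0 and 131.8, 149.9 and 144.6 RPKM in the mutant. The mutant libraries were all below the Col-0 libraries, but the log2 fold change of -0.20 (SE 0.085) did not pass. The level of JAL34 was 1.93 ± 0.219 times that of JR1 in Col-0 and 0.983 ± 0.00808 times in the mutant (SD, n = 3 each).

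**Figure D2:**
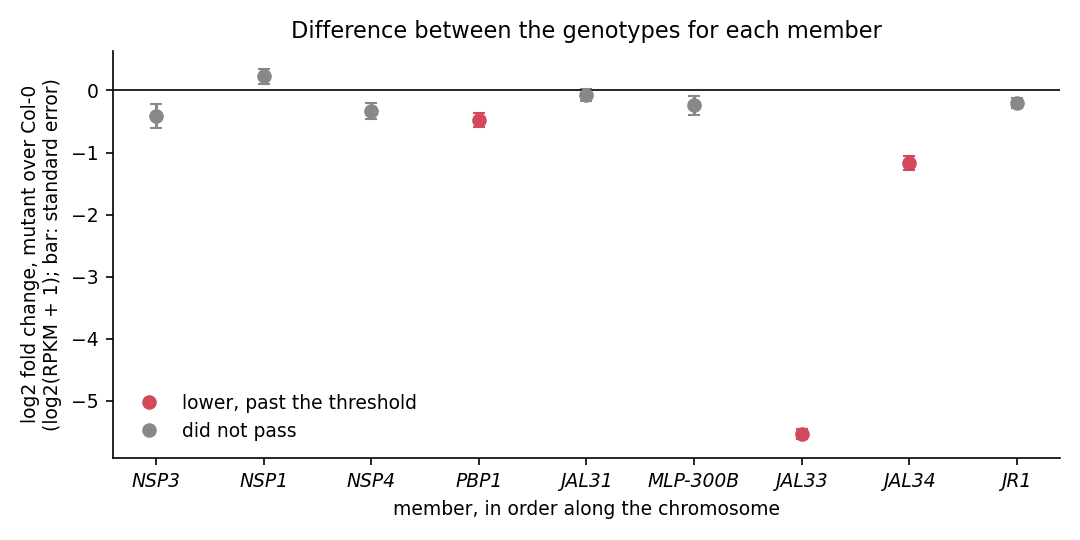
Log2 fold change of each member, mutant over Col-0, on the log2(RPKM + 1) scale, in order along the chromosome; bars are standard errors. JAL33 at -5.53, JAL34 at -1.17 and PBP1 at -0.48 are marked as lower, and the other 6 members, which did not pass, lie between -0.41 and 0.23.

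The 3 nitrile-specifier genes at the upstream end did not pass. NSP1 measured 351.4, 336.0 and 326.3 RPKM in Col-0 and 354.7, 470.9 and 369.0 RPKM in the mutant. It was the sole member whose mutant libraries were all above its Col-0 libraries, by a narrow margin for mutant replicate 1 and a wide one for mutant replicate 2. Its log2 fold change was 0.23 (SE 0.115). NSP4 measured 25.6, 22.9 and 18.5 RPKM in Col-0 and 15.9, 17.7 and 18.8 RPKM in the mutant, and the genotypes overlapped through Col-0 replicate 3. NSP3, the least abundant member, measured 5.56, 2.88 and 4.62 RPKM in Col-0 and 3.42, 2.65 and 2.79 RPKM in the mutant, and the genotypes overlapped through Col-0 replicate 2. The log2 fold changes were -0.33 (SE 0.124) for NSP4 and -0.41 (SE 0.195) for NSP3. NSP4 was called lower without Col-0 replicate 3, at -0.45, and NSP3 without Col-0 replicate 2, at -0.62.

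Summed over the 3 genes, the nitrile-specifier level was 364.6 ± 16.7 RPKM in Col-0 against 418.6 ± 63.4 RPKM in the mutant libraries (SD, n = 3 each). NSP1 made up most of that sum, at 12.8 ± 1.41 times the level of NSP3 and NSP4 together in Col-0 and 19.5 ± 3.23 times in the mutant.

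Ordered by level per length, Col-0 ran from PBP1 through NSP1, JAL34, JAL33, JR1, JAL31, NSP4 and MLP-300B to NSP3. The ranges of NSP1 and JAL34 overlapped across the Col-0 libraries, and NSP1 was the higher of the pair in 2 of 3. Those of JAL34 and JAL33 overlapped too, although JAL34 was the higher within each of the 3 libraries. The mutant order was PBP1, NSP1, JR1, JAL34, JAL31, NSP4, MLP-300B, JAL33 and NSP3, with overlapping ranges for JR1 and JAL34 alone among neighbours, although JR1 was the higher within each of the 3 libraries. JAL33 thus ranked 4 of 9 in Col-0 and 8 of 9 in the mutant, and no other member's rank moved by more than 2 places.

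The whole cluster took 3676, 3700 and 3195 RPM (recovered reads scaled to library depth, not to gene length) in the Col-0 libraries and 2236, 2698 and 2388 RPM in the mutant libraries. The Col-0 libraries were all above the mutant libraries, with means of 3524 ± 285 and 2441 ± 236 RPM (SD, n = 3 each). Without JAL33 the means were 3144 ± 259 and 2434 ± 236 RPM. JAL33 held 10.8% of the cluster's reads in Col-0 and 0.282% in the mutant, JAL34 22.5% and 14.4%, NSP1 19.8% and 33.4%, and PBP1 32.9% and 34.1%. In bulk seedlings fewer cells of a type and less RNA per cell cannot be told apart.

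**Figure D3:**
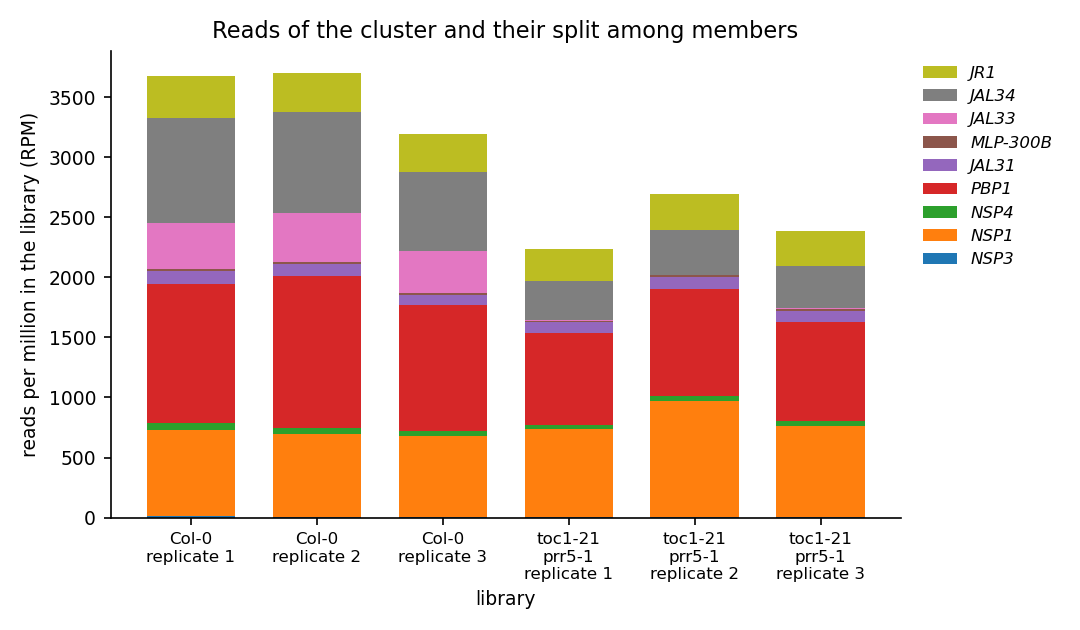
Reads of the cluster in each library, scaled to depth (RPM) and split by member in stacked bars that start at 0. The Col-0 bars reach 3195 to 3700 and the mutant bars 2236 to 2698; the JAL33 band, 10.8% of the cluster in Col-0, is too thin to see in the mutant, at 0.282%.

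Facts of the series that touch these values are few. Depth was 14617043 to 22173648 reads in Col-0 and 19956080 to 26792712 in the mutant. TOC1 measured 33.6 ± 1.49 RPKM in Col-0 and 16.8 ± 1.91 in the mutant, and PRR5 2.94 ± 0.0664 and 1.12 ± 0.216 (SD, n = 3 each). Markers of root hairs (7 genes), leaf mesophyll (5), epidermis (4) and guard cells (4) all passed the filter on low values, as a sample of whole seedlings would hold. None of the 7 root hair markers and none of the 4 guard cell markers passed the limma test, with 0 root hair and 2 guard cell markers at an unadjusted p under 0.05 and 0 of either by limma-voom; without Col-0 replicate 2, 1 guard cell marker was called lower. Summed root hair markers ranged from 28.4 to 76.8 RPKM in Col-0 and from 65.2 to 96.6 RPKM in the mutant. The low end in Col-0 was replicate 3, the lowest Col-0 library for each of the 7 markers. PRP3, for example, measured 26.9, 26.5 and 9.61 RPKM in Col-0 replicates 1, 2 and 3. Among mesophyll markers RCA was higher in the mutant, and among epidermis markers ATML1 was lower; RCA was not called without Col-0 replicate 1, nor without either of mutant replicates 1 and 2. Of 6 seed storage markers 4 were lower in the mutant and 0 higher, beside 6.65% of all tested genes called lower and 3.90% higher. Their summed level was 592.8 to 705.7 RPKM in Col-0 and 309.3 to 377.3 RPKM in the mutant. Without Col-0 replicate 1 the number of seed markers called lower was 6, and without mutant replicate 2 it was 3. The seed markers moved in the same direction as JAL33, JAL34 and PBP1, and their part in those results was not tested.

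The genes next to the cluster were compared to see how far the difference reached along the chromosome. Upstream, the 3 nearest loci were AHP4, a histidine phosphotransfer protein of cytokinin signalling, AT3G16370 and PAB6, a poly(A)-binding protein. AHP4 was lower in the mutant, at 19.0 ± 1.96 against 10.5 ± 1.67 RPKM (SD, n = 3 each; limma adjusted p 0.0029), and the other 2 did not pass. Downstream, MPPalpha, a subunit of the mitochondrial processing peptidase, was lower, at 28.9 ± 2.42 against 17.9 ± 0.876 RPKM (limma adjusted p 0.00139), while IQD26 and AT3G16500 did not pass. The members at the edges of the cluster, NSP3 and JR1, did not pass.

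Among the 20 nearest tested loci on each side, 7 of 40 were called, 6 lower and 1 higher, which is 17.5%. Within 1 Mb on each side, 83 of 448 tested genes were called, 55 lower and 28 higher, which is 18.5%. The share was 14.4% of 3877 tested genes on chromosome 3 as a whole and 9.68% of 15687 on the other chromosomes. TOC1 and PRR5 both lie on chromosome 5, which is pooled with the others in that last share. The median log2 fold change within 1 Mb was -0.05, and 20 genes there had a log2 fold change beyond 1 in either direction. No test was made of these shares, and genes on a chromosome are not independent samples. The labels do not give the parental background of the mutant alleles. A difference at JAL33 that comes with the toc1-21 and prr5-1 mutations and one that comes with other sequence differences between the lines therefore cannot be told apart here.

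**Figure D4:**
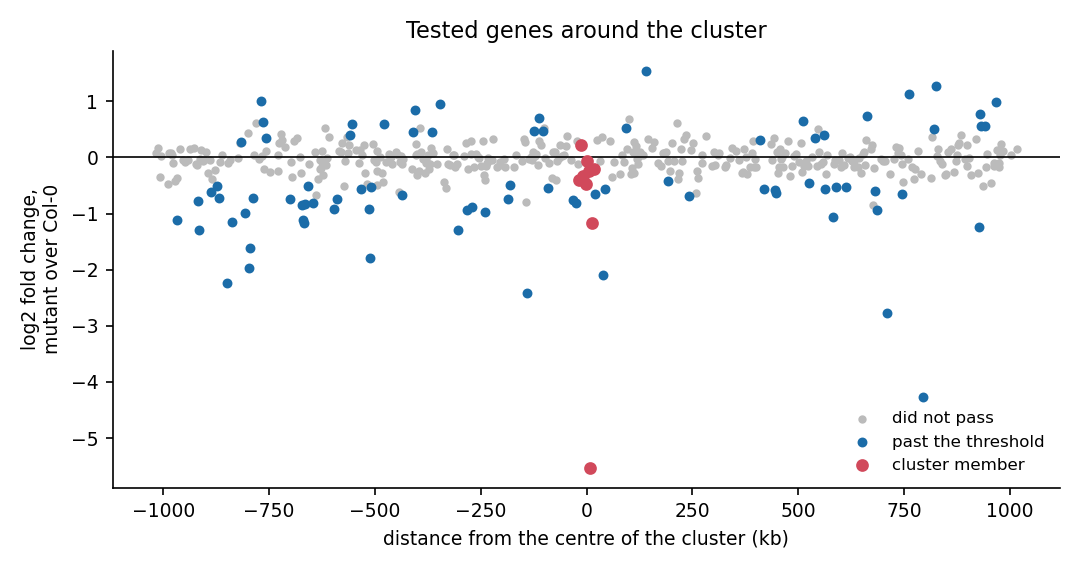
Log2 fold change, mutant over Col-0, of tested genes within 1 Mb on each side against distance from the centre of the cluster in kb. JAL33 at -5.53 is the lowest point, called genes lie on both sides at a share of 18.5%, and most members sit near 0 among uncalled genes.

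Loci outside the cluster whose description in the files or in RefSeq holds the word jacalin or names a mannose-binding lectin superfamily protein were examined next. Of 41 such loci 21 were tested and 6 were at 0 in every library. The list follows the descriptions and not the proteins: it takes in MIR846, a microRNA locus, and AT1G51430, a cTAGE family protein by its RefSeq name, and leaves out the myrosinase-binding proteins MBP1 and MBP2, which are counted with glucosinolate breakdown. In the limma fit 4 were lower in the mutant, 1 was higher and 16 did not pass, with a median log2 fold change of -0.02 beside -0.01 over all tested genes. Of all tested genes 6.65% were called lower and 3.90% higher. AT5G35940 measured 15.9, 14.6 and 11.8 RPKM in Col-0 and 4.78, 4.37 and 4.96 in the mutant (adjusted p 7.91e-05). AT1G52100 measured 27.4, 22.7 and 30.4 RPKM in Col-0 and 8.88, 8.95 and 11.3 in the mutant (adjusted p 0.000111). The genotypes did not overlap for either gene, and the mutant was at roughly the same low level in each of its libraries. AT1G52000 was lower at 95.9 against 40.7 RPKM, AT2G25980 was lower at 31.3 against 20.6 RPKM, and AT1G60095 was higher at 1.49 against 3.34 RPKM.

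PYK10 and the other genes of endoplasmic reticulum bodies gave 3 lower, 0 higher and 10 that did not pass of 13 tested, with a median log2 fold change of -0.14. Over all tested genes the median was -0.01, with 6.65% called lower and 3.90% higher. Of the 13 genes 2, JAL22 and JAL23, are also counted with the other jacalin genes. BGLU18, a beta-glucosidase of inducible endoplasmic reticulum bodies, was lower, at 146.8 ± 25.2 against 75.3 ± 16.1 RPKM (SD, n = 3 each; limma adjusted p 0.00369). GLL23, a GDSL-lipase-like protein, and NAI2, which is needed for the bodies to form, were also lower, with adjusted p of 0.0037 and 0.0124 by limma. NAI2 lies within 1 Mb of the cluster. PYK10 itself measured 1889, 2252 and 1500 RPKM in Col-0 and 1211, 1443 and 1284 RPKM in the mutant. All its mutant libraries were below its Col-0 libraries, but it did not pass (adjusted p 0.0775 by limma). JAL22, a lectin of the PYK10 aggregates encoded outside the cluster, measured 281.2 ± 22.1 against 350.1 ± 33.4 RPKM (SD, n = 3 each), also without passing, and the regulator NAI1 did not pass. The NAI2 call was lost without Col-0 replicate 1 and without mutant replicate 3, and without Col-0 replicate 3 the number called lower was 6.

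Of 11 genes of glucosinolate breakdown 3 were lower, 0 higher and 8 did not pass, with a median log2 fold change of -0.28. Among all tested genes 6.65% were called lower and 3.90% higher, and the median was -0.01. ESM1, which favours isothiocyanates over nitriles, was lower at 88.4 ± 14.9 against 17.9 ± 2.15 RPKM (SD, n = 3 each; limma adjusted p 4.5e-06). ESM1 itself lies within 1 Mb of the cluster. MBP1, a myrosinase-binding protein with jacalin domains, was lower at 22.3 ± 7.05 against 4.24 ± 1.56 RPKM (limma adjusted p 0.000299). The myrosinase TGG2 was lower (limma adjusted p 0.0352), a call lost without any 1 of Col-0 replicates 1 and 3 and the 3 mutant replicates, and also with centred libraries or no filter, where the adjusted p reached at most 0.132. NSP2 and NSP5, nitrile-specifier genes outside the cluster, and the myrosinase TGG1 did not pass.

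Jasmonate-responsive genes were examined because JR1 takes its name from that hormone. Of 10 tested, 5 were lower in the mutant, 0 higher and 5 did not pass, with a median log2 fold change of -0.58, and PDF1.2 was at 0 in every library. The median over all tested genes was -0.01, and 6.65% of them were called lower and 3.90% higher. LOX2, a lipoxygenase of jasmonate synthesis, was lower at 106.7 ± 18.6 against 41.2 ± 3.00 RPKM (SD, n = 3 each; limma adjusted p 7.05e-05). VSP2 and VSP1, vegetative storage proteins, and CORI3 were lower, with adjusted p of 0.000148, 0.00426 and 0.00499 by limma, and CLH1 was the last of the 5. The CLH1 call was lost without Col-0 replicate 1 and without mutant replicate 2, and without Col-0 replicate 3 the number called lower was 8. JR1 was not called while these 5 were, a contrast that was not tested.

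**Figure D5:**
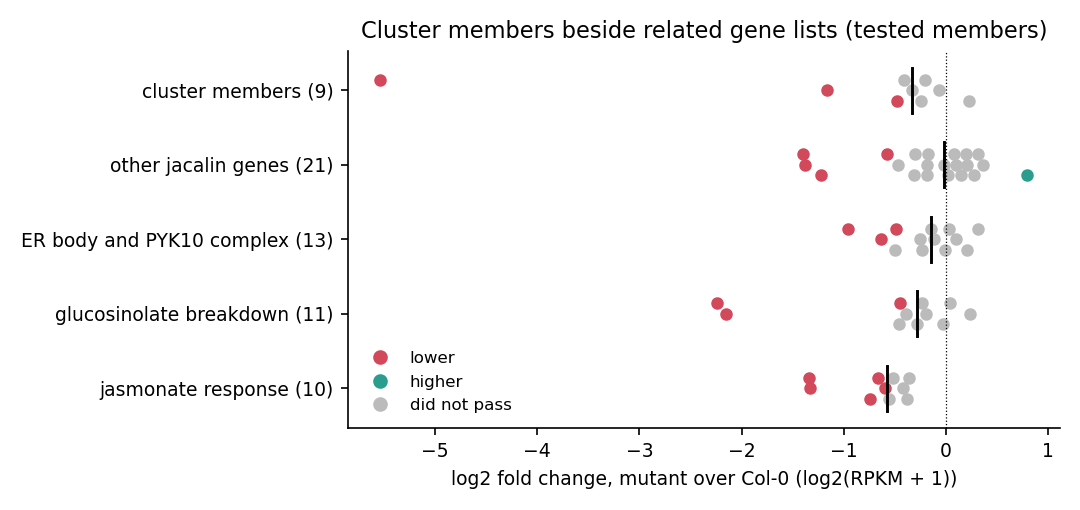
Log2 fold change, mutant over Col-0, of tested genes in the cluster and in 4 related lists; each point is a gene, coloured by its call, and black bars are list medians. The medians are -0.33 for the 9 members, -0.02 for 21 other jacalin genes, -0.14 for 13 genes of endoplasmic reticulum bodies, -0.28 for 11 of glucosinolate breakdown and -0.58 for 10 jasmonate genes. JAL22 and JAL23 are in both the other jacalin list and that of endoplasmic reticulum bodies.

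The genes most like JAL33 across the libraries were sought by the root mean square difference in log2(RPKM + 1) over 6 libraries, after taking each gene's Col-0 mean from it, among 19701 tested genes outside the cluster. AT1G67865, an uncharacterised gene on chromosome 1, was nearest at 0.292, and measured 189.9, 190.0 and 263.6 RPKM in Col-0 and 2.58, 2.58 and 3.68 in the mutant. The noncoding gene AT3G06125 followed at 0.541, with 33.2 ± 4.13 against 0.245 ± 0.122 RPKM (SD, n = 3 each). The snoRNA gene AT1G75163 at 0.601 is listed at 0 in the mutant libraries. AT3G43740, a leucine-rich repeat gene, stood at 0.678 and the noncoding gene AT3G44798 came last. With each gene's Col-0 mean taken away, the measure follows mainly the log2 fold change, which ran from -5.765 to -4.480 for these 5. No gene of the other jacalin list was among them. The lowest log2 fold change in that list was -1.396, so this absence followed from the measure and says nothing further. Members of the cluster were not compared.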

How the data were processed

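RNA from whole seedlings was sequenced in 6 libraries, 3 per genotype. Replicates came as 1 file per library. The authors deposited RPKM values for 33602 loci, per the file headers; TopHat2, TopHat and edgeR and the TAIR10 build are named per the submitters' processing notes, without roles or versions. No label states how reads were counted, whether strand was used, or how reads matching several places were treated. The series' design text calls the 3 samples of a genotype biological replicates without saying how they were kept apart, so p-values reflect the spread among these 6 samples, which may be technical.

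Differences were fitted with limma 3.58.1 in R 4.3.3, fitting genotype alone to log2(RPKM + 1) with a trended variance. The filter kept 19710 genes that reached 1 RPKM in 3 or more libraries; Benjamini-Hochberg adjustment covered all of them, and calls were made under 0.05. The scale understates the change of low genes. The fit was tested on simulated data. Whole reads were recovered from the RPKM values of all 25139 genes above 0, within 1e-05 of a whole read, and gave each library's depth; a value of 0 stands for no read. The length taken was the smallest that made all 6 values whole, multiplied for 443 genes where it was too short, so reads are uncertain by a common factor. Replicates differed by more than counting noise.

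Gene positions, coding sequences and the bases before gene starts came from TAIR10.1 of RefSeq, matched by locus for 97.7% of loci; the files hold no coordinates. The members, gene lists, tests and the rule for named genes were chosen with earlier results of these data known. By that rule, named genes were all members, TOC1, PRR5, 3 loci on each side and the 5 genes most like JAL33. It also named up to 4 genes per list with the smallest adjusted p, and genes that define a list. Outside the rule, AT2G25980 and CLH1 were named as the last called genes of their lists, and the called seed markers were left unnamed. Genes named to describe a list or a limit, or under other observations, were added too. Other jacalin genes are loci so described in the files or in RefSeq. A protein comparison was replaced by coding sequences. Alternatives changed the pseudocount (0.1 or 5), the filter (none or 5 RPKM), the scaling (libraries centred on their median), the test (limma-voom with TMM scaling on recovered reads), added the replicate number, or left out a library.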

Additional observations from a re-analysis of the deposited data

How the results depend on the processing

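The 6 members that did not pass and the 3 called lower kept their direction under all 13 alternatives, except that NSP3 had no value under the filter at 5 RPKM. JAL33 and JAL34 were called lower in every alternative. The log2 fold change of JAL33 ran from -5.77 with limma-voom on recovered reads to -4.82 with a pseudocount of 5, and that of JAL34 from -1.29 to -1.09. The number of members called lower ran from 2 to 4 when libraries were left out.

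Over all genes, 447 to 806 were called higher and 861 to 1457 lower without 1 library (fewest without Col-0 replicate 1 or mutant replicates 1 or 2, at 1361, 1340 and 1361 in all), and limma-voom on recovered reads called 2238 against 2080. Without 1 library, genes of endoplasmic reticulum bodies called lower ran from 2 to 6, jasmonate genes from 4 to 8, guard cell markers from 0 to 1, and mesophyll markers called higher from 0 to 1. Other jacalin genes called higher numbered 3 with no filter, 0 with the filter at 5 RPKM and 2 with limma-voom. Limma-voom also called 1 gene of endoplasmic reticulum bodies higher and 1 mesophyll marker lower, and no mesophyll marker was called higher with no filter (0). The cause was not tested.

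Centring moved the genotypes by -0.03 log2 and TMM by -0.02. The labels give both genotypes the replicate numbers 1 to 3. Deviations of same-numbered libraries correlated at r of -0.03, 0.15 and 0.04. The highest r with another number was 0.03, -0.06 and 0.11 for Col-0 replicates 1, 2 and 3. With 3 libraries per genotype these values cannot decide whether the numbers pair the libraries. With the replicate block 2114 genes were called and 1 root hair marker was higher. Depth limits NSP3, with 77 to 169 reads per library, and JAL33 in the mutant most.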

Other observations

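Genes with large called differences lay on both sides of the cluster. The 4 below were picked by eye after their values were seen, from the called genes within 1 Mb with large log2 fold changes. Outside the cluster, AT3G18535 had the lowest log2 fold change there, at -4.264, and AT3G16800 the highest, at 1.548. AT3G18320, at -2.773, and ESM1, at -2.238, were not picked, although UGT88A1 was at -2.090. UGT88A1, a glycosyltransferase close downstream, measured 48.3, 43.0 and 47.6 RPKM in Col-0 and 9.75, 8.59 and 12.3 RPKM in the mutant. CES101, a lectin receptor kinase gene upstream, measured 5.06, 4.57 and 4.13 RPKM in Col-0 and 0.0378, 0.0439 and 0.0393 RPKM in the mutant. AT3G18535, annotated as a tubulin-tyrosine ligase, measured 17.7, 20.9 and 18.3 RPKM in Col-0 and 0.0403, 0.0312 and 0.0419 RPKM in the mutant. AT3G16800, a protein phosphatase gene, was higher, at 5.43, 4.59 and 4.46 RPKM in Col-0 and 15.2, 17.8 and 15.2 RPKM in the mutant. For each of these 4 genes no Col-0 value overlapped a mutant value.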
